A study of Homo sapiens with 12 samples.

Results

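The genes described here are the chemokines and chemokine receptors measured in 4 human lymphoma cell lines treated with avadomide, lenalidomide or DMSO. They were chosen by gene symbol, with ligands named CCL, CXCL, XCL or CX3CL and receptors named CCR, CXCR, XCR, CX3CR or ACKR, each followed by its number. Of the 58684 rows of the deposited table, 66 matched, 12 of these were listed at 0 in all 12 libraries, and the remaining 54 are 32 ligands and 22 receptors. U2932, SUDHL-4, TMD8 and WSU-DLCL2 are established cell lines grown from diffuse large B-cell lymphomas. Each was kept for 18 hours with avadomide (CC-122), with lenalidomide or with the solvent DMSO, which gives 1 library for each line and treatment and 4 libraries for each treatment. All were grown in RPMI-1640 medium with fetal bovine serum, and no other agent is named in the labels. Doses of the 2 compounds are not given in these sources, so they may differ. Both compounds carry the glutarimide ring that binds cereblon, a substrate receptor of a ubiquitin ligase. In avadomide this ring is attached to a quinazolinone that has amino and methyl groups, and in lenalidomide to an isoindolinone with an amino group. Each line is a single cultured line, so the comparisons run over 4 lines and not over repeats within a line, and nothing in the labels says whether libraries were prepared together.

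Chemokines are small secreted proteins that guide migrating cells, and most of their receptors are G protein-coupled receptors on leukocytes. B cells find the lymphoid follicle through CXCR5 and its ligand CXCL13, move towards T-cell zones through CCR7, and are held in bone marrow and in the dark zone of germinal centres through CXCR4. Activated B cells secrete CCL3, CCL4, CCL17 and CCL22, which attract T cells and myeloid cells, whereas CXCL9, CXCL10 and CXCL11 are known as interferon-induced ligands of CXCR3, a receptor of effector T cells. Atypical receptors, named ACKR, bind chemokines without the usual G protein signal and often take them up.

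The values are log2 expression values as the authors deposited them, with -2.41 as the lowest of the whole table. They are not given per gene length, so levels are compared only between libraries for the same gene. A change in a low gene may read smaller on this scale than it is, as the exact transform is not given. Sequencing depth is unknown, since the table holds no counts, and each library had from 13865 to 15294 genes at 5 or more on the log2 scale. The test was run on every gene that reached 1 on the log2 scale in 4 or more libraries, which took in 22528 genes and 27 of the 54 members, 16 of 32 ligands and 11 of 22 receptors. CXCR2 entered by a single library, U2932 with avadomide at 1.29, so its test is tied to that value. In bulk RNA, fewer cells of a type and less RNA per cell cannot be told apart. All 6 B-cell markers looked for were expressed, and their linear values summed to a log2 of 17.9 to 18.4 with avadomide, 17.9 to 18.3 with lenalidomide and 18.0 to 18.3 with DMSO. The 9 T and NK cell markers summed to 5.24 to 7.85 with avadomide, 4.90 to 6.94 with lenalidomide and 4.21 to 6.45 with DMSO. The 7 of 8 myeloid and dendritic markers above 0 summed to 4.27 to 7.57, 4.20 to 6.68 and 3.84 to 6.06 in the same order of treatments, and S100A8 was at 0 in all libraries. The 8 stromal, endothelial and epithelial markers summed to 10.4 to 11.8 with avadomide, 9.45 to 12 with lenalidomide and 8.99 to 11.9 with DMSO. Called markers under avadomide included NKG7, LYZ, CD68, COL1A1 and PECAM1 (higher) and CD22 and DCN (lower), and the part of other cells in the results below was not tested. NKG7 rose by 2.59 ± 0.55 and LYZ by 1.64 ± 0.46, and without WSU-DLCL2 no T, NK or myeloid marker was called.

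**Figure D1:**
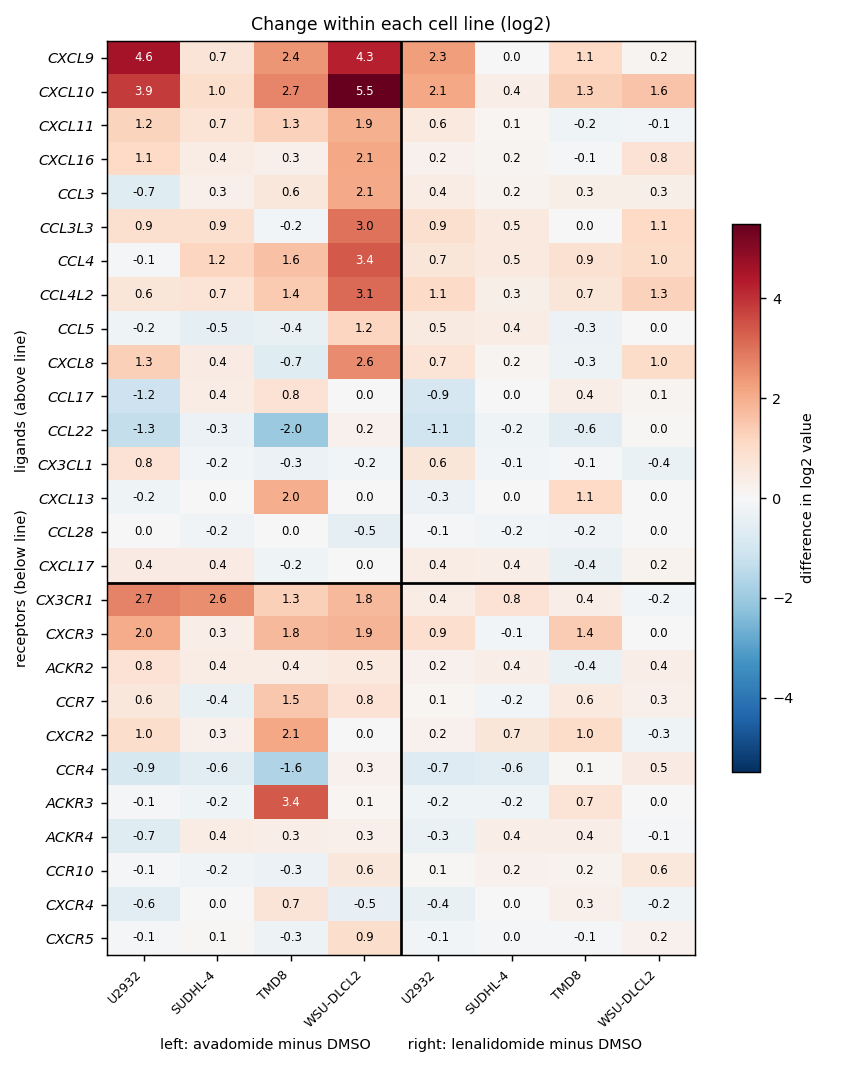
Heat map of the change in log2 value against DMSO for each tested chemokine ligand (above the line) and receptor (below it), with 1 column per line and compound, avadomide columns left of lenalidomide columns. Red is higher and blue lower than DMSO; CXCL9, CXCL10, CXCL11 and CX3CR1 are red in all 4 avadomide columns, with the palest of the CXCL9 and CXCL10 values in SUDHL-4.

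The CXCR3 ligands CXCL9, CXCL10 and CXCL11 rose with avadomide, as did CXCL16, CCL4 and CCL4L2, and no tested ligand fell past the threshold. In a limma fit with treatment and cell line as terms, 6 of 16 tested ligands were called higher and 0 lower at a Benjamini-Hochberg adjusted p of 0.05 over all tested genes. For comparison, 24.8% of all tested genes were called under avadomide, 13.6% as higher and 11.2% as lower. The median log2 fold change was 0.75 over the 16 ligands and 0.01 over all tested genes. Of 11 tested receptors 3 were called higher and 0 lower, with a median of 0.54. The 3 receptors were CX3CR1, CXCR3 and ACKR2. Counts over the tested members are not counts over the family, because untested members lay at the bottom of the scale in most libraries.

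CXCL9, CXCL10 and CXCL11 lie side by side on chromosome 4 (GENCODE v29 on GRCh38: 76001275 to 76007488, 76021117 to 76023497 and 76033682 to 76041415, all on the minus strand). Their upstream sequences are shown because these genes moved together and because interferon and NF-kB response elements are the textbook features of this cluster. Each is the stretch of 250 bases before the RefSeq transcript start (GRCh38.p14), read 5′ to 3′ on the gene's strand, and capitals mark matches to 3 short motifs searched on both strands. The motifs were the interferon-stimulated response element (ISRE) as GAAA, 2 free bases and GAAA, the interferon gamma-activated site (GAS) as TTC, 3 free bases and GAA, and the NF-kB site as GGGA, 2 free bases, T, 1 free base and CC. The promoter of CXCR3, the receptor of these ligands, follows them.
CXCL9, chr4:76007510-76007759, minus strand: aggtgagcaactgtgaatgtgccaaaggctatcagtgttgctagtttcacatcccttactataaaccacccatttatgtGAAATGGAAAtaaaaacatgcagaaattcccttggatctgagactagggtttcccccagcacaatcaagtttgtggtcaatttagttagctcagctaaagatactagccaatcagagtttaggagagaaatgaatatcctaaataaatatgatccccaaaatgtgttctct
CXCL10, chr4:76023498-76023747, minus strand: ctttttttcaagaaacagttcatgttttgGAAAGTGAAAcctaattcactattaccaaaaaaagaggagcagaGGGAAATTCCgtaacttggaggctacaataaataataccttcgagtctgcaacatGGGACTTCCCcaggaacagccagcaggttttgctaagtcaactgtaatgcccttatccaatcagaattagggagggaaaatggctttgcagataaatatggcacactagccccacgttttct
CXCL11, chr4:76036071-76036320, minus strand: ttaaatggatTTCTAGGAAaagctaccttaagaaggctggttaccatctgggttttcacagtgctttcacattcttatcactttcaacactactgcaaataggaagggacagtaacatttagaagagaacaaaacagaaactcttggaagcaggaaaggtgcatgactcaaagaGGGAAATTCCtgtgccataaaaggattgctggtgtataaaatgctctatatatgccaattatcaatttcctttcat
CXCR3, chrX:71618512-71618761, minus strand: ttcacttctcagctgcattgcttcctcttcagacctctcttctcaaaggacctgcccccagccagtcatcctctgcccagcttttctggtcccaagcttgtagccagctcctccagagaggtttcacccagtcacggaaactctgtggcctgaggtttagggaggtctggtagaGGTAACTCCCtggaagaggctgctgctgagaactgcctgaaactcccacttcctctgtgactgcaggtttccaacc
The CXCL9 window held 1 ISRE match, starting 171 bases before the transcript start. In the CXCL10 window an ISRE match began 221 bases before the start and NF-kB matches began 177 and 122 bases before it. CXCL11 had a GAS match at 240 bases and an NF-kB match at 76 bases before its start, and CXCR3 had an NF-kB match at 76 bases before its start. Of 35116 RefSeq windows of this length, 3.02% held the ISRE letters, 6.57% the GAS letters and 4.22% the NF-kB letters. Sequences were found for 16 of the 27 tested members, in 24 windows; besides the matches above, 1 of 3 windows of CX3CR1 held a GAS match at 94 bases before its start. Windows were found for 36 of the 54 members in all, and those of untested members held matches too. They were ISRE in CCR6 and XCR1, GAS in CCL13, CCL24, CXCL6, CCR1, CCR6 and CCR9, and NF-kB in CCL1, CXCL3 and CXCL6. A match is only a run of letters, and binding was not measured.

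**Figure D2:**
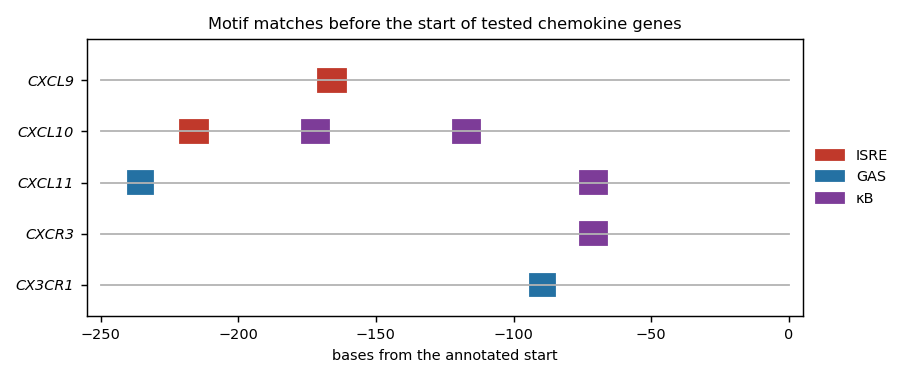
Positions of ISRE, GAS and NF-kB motif matches in the stretch of 250 bases before the RefSeq start of tested members, in bases relative to the start at the right edge. Each symbol is 1 match; CXCL10 has 3, CXCL11 has 2, and CXCL9, CXCR3 and CX3CR1 have 1 each.

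In U2932, SUDHL-4, TMD8 and WSU-DLCL2, in that order throughout, CXCL10 read 9.51, 3.98, 11.81 and 8.83 with avadomide, 7.79, 3.39, 10.45 and 4.90 with lenalidomide, and 5.66, 3.01, 9.15 and 3.33 with DMSO. Within every line avadomide was highest and DMSO lowest, while between lines the groups overlapped, since TMD8 with DMSO lay above SUDHL-4 and WSU-DLCL2 with avadomide. The rise with avadomide was 3.25 ± 0.57 (log2, SE, n = 4 lines), or 9.49-fold on this scale, with a limma adjusted p of 0.00383. CXCL9 read 6.94, 1.62, 7.84 and 5.14 with avadomide, 4.67, 0.92, 6.53 and 1.05 with lenalidomide, and 2.35, 0.90, 5.43 and 0.88 with DMSO. It too was highest with avadomide in each line, and in SUDHL-4 and WSU-DLCL2 the DMSO values were close to the lowest of this gene. The rise was 3.0 ± 0.59, or 7.99-fold (limma adjusted p = 0.00637). CXCL11 read 5.82, 2.21, 5.74 and 6.70 with avadomide, 5.16, 1.58, 4.23 and 4.64 with lenalidomide, and 4.60, 1.47, 4.47 and 4.77 with DMSO. In TMD8 and WSU-DLCL2 the lenalidomide value lay below DMSO, and the rise with avadomide was seen in 4 of 4 lines, at 1.29 ± 0.23 or 2.45-fold (limma adjusted p = 0.00425). All 3 calls held when any 1 line was left out. CXCL10 and CXCL11 lie within the span of ART3 on the other strand, and CXCL9 overlaps an antisense gene, neither of which passed the filter; whether counting used strand is not stated.

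The response of the 3 ligands was smallest in SUDHL-4, where CXCL9, CXCL10 and CXCL11 exceeded DMSO by 0.73, 0.97 and 0.75 with avadomide. The range in the other lines was 2.41 to 4.59 for CXCL9, 2.67 to 5.5 for CXCL10 and 1.21 to 1.93 for CXCL11. With 1 library per line and treatment, the difference between lines was not tested.

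**Figure D3:**
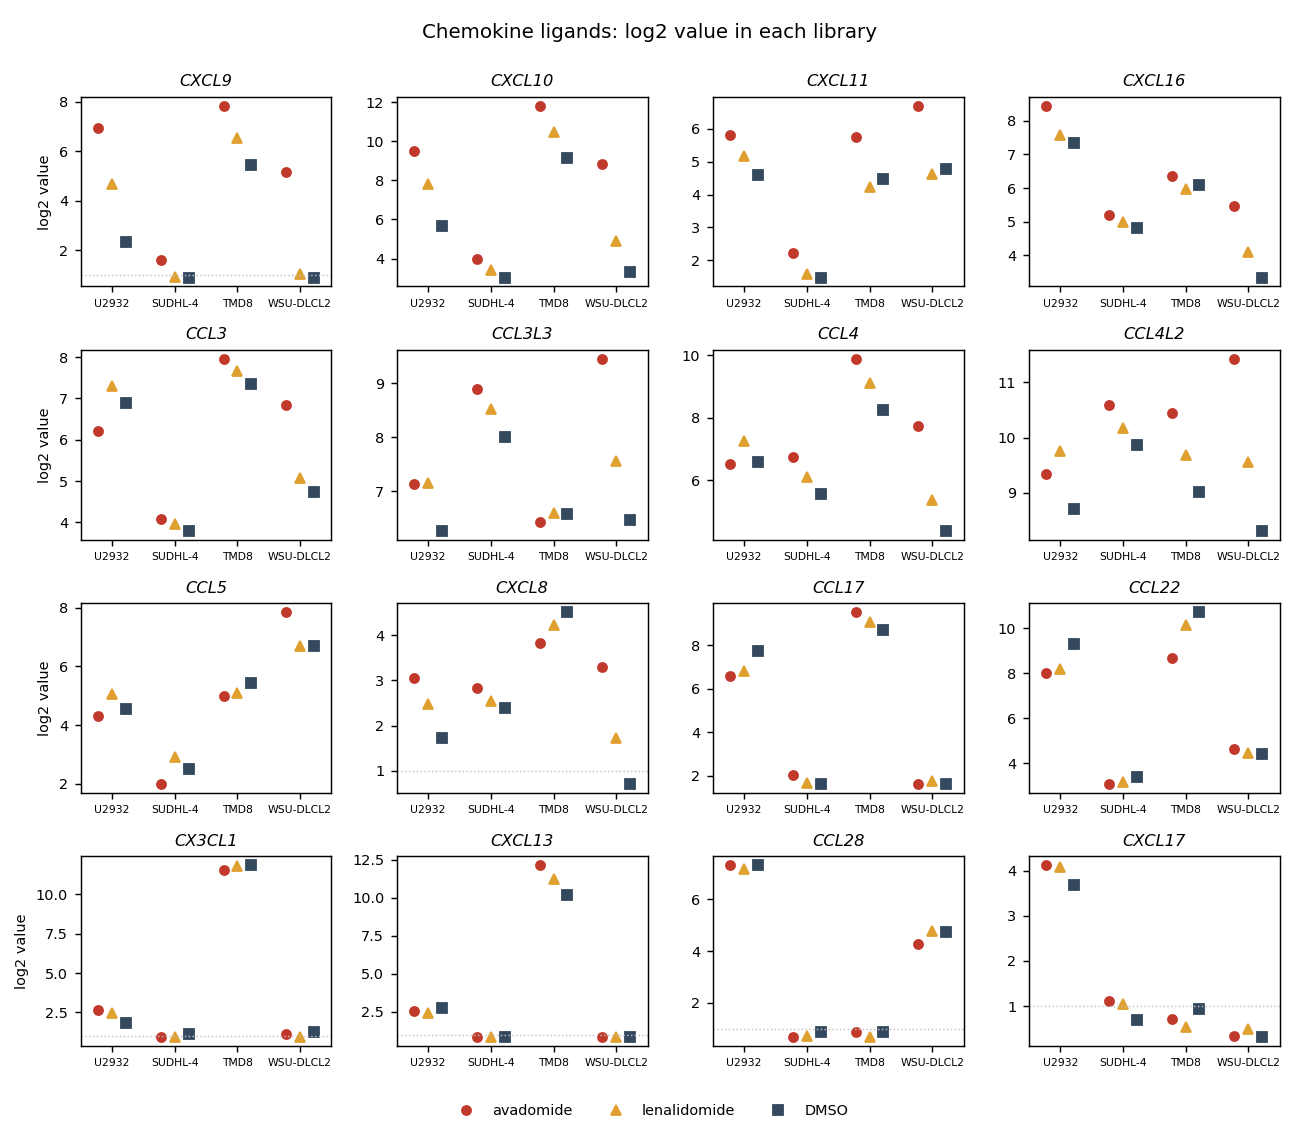
Log2 value of chemokine ligands in each library, by line, with avadomide (circles), lenalidomide (triangles) and DMSO (squares); each symbol is 1 library and each panel has its own axis, with a dotted line at the filter value of 1 where it falls in range. CXCL9 and CXCL10 stand in the order avadomide, lenalidomide, DMSO in all 4 lines, whereas CCL22 is lowest with avadomide in U2932, SUDHL-4 and TMD8.

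CXCL16, a transmembrane chemokine that is the ligand of CXCR6 (chromosome 17, 4733526 to 4739922), read 8.44, 5.21, 6.35 and 5.47 with avadomide in U2932, SUDHL-4, TMD8 and WSU-DLCL2, 7.57, 4.99, 5.98 and 4.11 with lenalidomide, and 7.35, 4.83, 6.09 and 3.33 with DMSO. Avadomide was highest in 4 of 4 lines, by 0.26 in TMD8 up to 2.14 in WSU-DLCL2, and the rise was 0.97 ± 0.26 (limma adjusted p = 0.0219). Its receptor CXCR6 was not tested and lay between -2.14 and -1.94 in all libraries. The CXCL16 call was lost without U2932 (0.93, limma adjusted p = 0.107) and without WSU-DLCL2 (0.58, limma adjusted p = 0.0682). The gene overlaps MED11 on the other strand, which is expressed.

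The leukocyte attractants CCL3 and CCL4 and their near-identical copies CCL3L3 and CCL4L2 sit in a cluster on chromosome 17 (CCL3 at 36088256 to 36090169, CCL4 at 36103590 to 36105621, CCL4L2 at 36210924 to 36212878). Reads of a gene and its copy may be split between them, so each value is uncertain on its own. CCL4L2 read 9.34, 10.59, 10.45 and 11.43 with avadomide in U2932, SUDHL-4, TMD8 and WSU-DLCL2, 9.76, 10.17, 9.69 and 9.56 with lenalidomide, and 8.70, 9.86, 9.01 and 8.30 with DMSO. Avadomide exceeded DMSO in 4 of 4 lines, by 1.49 ± 0.35 (limma adjusted p = 0.0144). CCL4 read 6.53, 6.74, 9.88 and 7.74 with avadomide, 7.26, 6.10, 9.11 and 5.38 with lenalidomide, and 6.6, 5.57, 8.26 and 4.39 with DMSO. It was higher than DMSO in 3 of 4 lines and differed by -0.07 in U2932, with a rise of 1.52 ± 0.44 (limma adjusted p = 0.032). CCL3L3 read 7.14, 8.90, 6.43 and 9.46 with avadomide, 7.15, 8.53, 6.59 and 7.57 with lenalidomide, and 6.27, 8.01, 6.59 and 6.47 with DMSO, a difference of 1.15 ± 0.39 that missed the threshold (limma adjusted p = 0.0581). CCL3 read 6.2, 4.08, 7.96 and 6.84 with avadomide, 7.30, 3.97, 7.66 and 5.07 with lenalidomide, and 6.88, 3.79, 7.34 and 4.73 with DMSO, with a 95% interval of -0.27 to 1.44 for the avadomide difference (limma adjusted p = 0.303). WSU-DLCL2 showed the widest gap for all 4 genes, from 2.10 for CCL3 to 3.36 for CCL4. The CCL4 call was lost without SUDHL-4, TMD8 or WSU-DLCL2 (limma adjusted p = 0.0873, 0.105 and 0.0954), where the difference without WSU-DLCL2 was 0.91. Without TMD8 the CCL4L2 call was lost (limma adjusted p = 0.0533) and CCL3L3 was called (1.58, limma adjusted p = 0.0276), whereas without WSU-DLCL2 the difference was 0.53 for CCL3L3 and 0.94 for CCL4L2.

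CCL5, a T-cell attractant on the same chromosome (35871491 to 35880793), behaved differently between lines. It read 4.31, 1.99, 5.0 and 7.86 with avadomide in U2932, SUDHL-4, TMD8 and WSU-DLCL2, 5.05, 2.91, 5.11 and 6.69 with lenalidomide, and 4.55, 2.5, 5.43 and 6.69 with DMSO. Avadomide lay 1.17 above DMSO in WSU-DLCL2 and 0.24 to 0.52 below it in the other lines, so that the mean difference was -0.004 with a 95% interval of -0.69 to 0.69 (limma adjusted p = 0.994).

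CCL22 and CCL17, the ligands of CCR4, flank the gene of the membrane-bound chemokine CX3CL1 on chromosome 16, with CCL22 at 57358772 to 57366190, CX3CL1 at 57372458 to 57385048 and CCL17 at 57404767 to 57416062. CCL22 read 8.01, 3.08, 8.69 and 4.66 with avadomide in U2932, SUDHL-4, TMD8 and WSU-DLCL2, 8.19, 3.17, 10.16 and 4.47 with lenalidomide, and 9.30, 3.41, 10.73 and 4.43 with DMSO. It was lowest with avadomide in 3 of 4 lines and highest in WSU-DLCL2, by 0.23. The difference from DMSO was -0.86 ± 0.31 (95% interval -1.56 to -0.15, limma adjusted p = 0.0745), and without WSU-DLCL2 it was -1.22 and passed (limma adjusted p = 0.0458), whereas without TMD8 it was -0.46. After quantile normalization or with equal library medians it passed as well, at -1.03 and -0.97 (limma adjusted p = 0.0407 and 0.0452). CCL17 read 6.58, 2.03, 9.54 and 1.63 with avadomide, 6.81, 1.64, 9.09 and 1.75 with lenalidomide, and 7.73, 1.62, 8.73 and 1.61 with DMSO. Relative to DMSO it was 1.15 lower in U2932 and 0.81 higher in TMD8, the lines in which it read above 6, with a mean difference of 0.02 and a 95% interval of -0.56 to 0.61. CX3CL1 stood at 11.55 with avadomide, 11.79 with lenalidomide and 11.87 with DMSO in TMD8 and between 0.93 and 2.63 in the other lines.

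CXCL8, a neutrophil attractant that signals through CXCR1 and CXCR2 (chromosome 4, 73740506 to 73743716), read 3.05, 2.84, 3.83 and 3.29 with avadomide in U2932, SUDHL-4, TMD8 and WSU-DLCL2, 2.47, 2.54, 4.22 and 1.73 with lenalidomide, and 1.72, 2.39, 4.51 and 0.71 with DMSO. It was higher with avadomide in 3 lines and 0.68 lower in TMD8. The difference was 0.92 ± 0.41 (limma adjusted p = 0.132), and without TMD8 it was 1.45 and passed (limma adjusted p = 0.0287), whereas without WSU-DLCL2 it was 0.36. CXCL13, the follicle chemokine (chromosome 4, 77511753 to 77611834), was expressed at a high level only in TMD8, at 12.16 with avadomide, 11.26 with lenalidomide and 10.17 with DMSO. In U2932 it stood at 2.54, 2.45 and 2.77 in that order of treatments, and in SUDHL-4 and WSU-DLCL2 between 0.84 and 0.88 in every library. The mean difference of 0.45 ± 0.31 (limma adjusted p = 0.335) therefore mixes 1 line that stood 1.99 above DMSO with 3 that moved by at most 0.24. The remaining tested ligands, CCL28 and CXCL17, had differences of -0.16 (95% interval -0.49 to 0.17) and 0.17 (95% interval -0.24 to 0.59).

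Among receptors, CX3CR1, the receptor of CX3CL1 (chromosome 3, 39263494 to 39281735), was higher with avadomide in all lines. It read 7.29, 5.47, 9.72 and 5.25 with avadomide in U2932, SUDHL-4, TMD8 and WSU-DLCL2, 4.98, 3.72, 8.77 and 3.31 with lenalidomide, and 4.58, 2.91, 8.41 and 3.47 with DMSO. Avadomide was highest in every line, SUDHL-4 included, by 1.31 to 2.71 over DMSO. The rise of 2.09 ± 0.23, or 4.25-fold (limma adjusted p = 0.000618), held when any 1 line was left out. CXCR3 (chromosome X, 71615916 to 71618517), the receptor of CXCL9, CXCL10 and CXCL11, read 6.08, 2.0, 8.86 and 3.03 with avadomide, 5.0, 1.51, 8.46 and 1.15 with lenalidomide, and 4.05, 1.65, 7.07 and 1.15 with DMSO. Avadomide was highest in each line, by 1.79 to 2.02 over DMSO in U2932, TMD8 and WSU-DLCL2 and by 0.34 in SUDHL-4. The rise was 1.51 ± 0.31, or 2.85-fold (limma adjusted p = 0.0073), and without U2932 it was 1.34 and missed the threshold (limma adjusted p = 0.056). ACKR2, a scavenger of inflammatory CC chemokines (chromosome 3, 42804752 to 42887974), read 4.32, 3.84, 3.52 and 3.93 with avadomide, 3.75, 3.79, 2.75 and 3.77 with lenalidomide, and 3.51, 3.43, 3.11 and 3.40 with DMSO. It was highest with avadomide in 4 of 4 lines and the 4 avadomide values all lay above the 4 DMSO values, with a rise of 0.54 ± 0.16 (limma adjusted p = 0.0374). That call was lost without U2932, SUDHL-4 or WSU-DLCL2 (limma adjusted p = 0.177, 0.0732 and 0.122), and after quantile normalization or with equal library medians (limma adjusted p = 0.11 and 0.0706). ACKR2 shares its span with CYP8B1 and KRBOX1, which did not pass the filter.

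**Figure D4:**
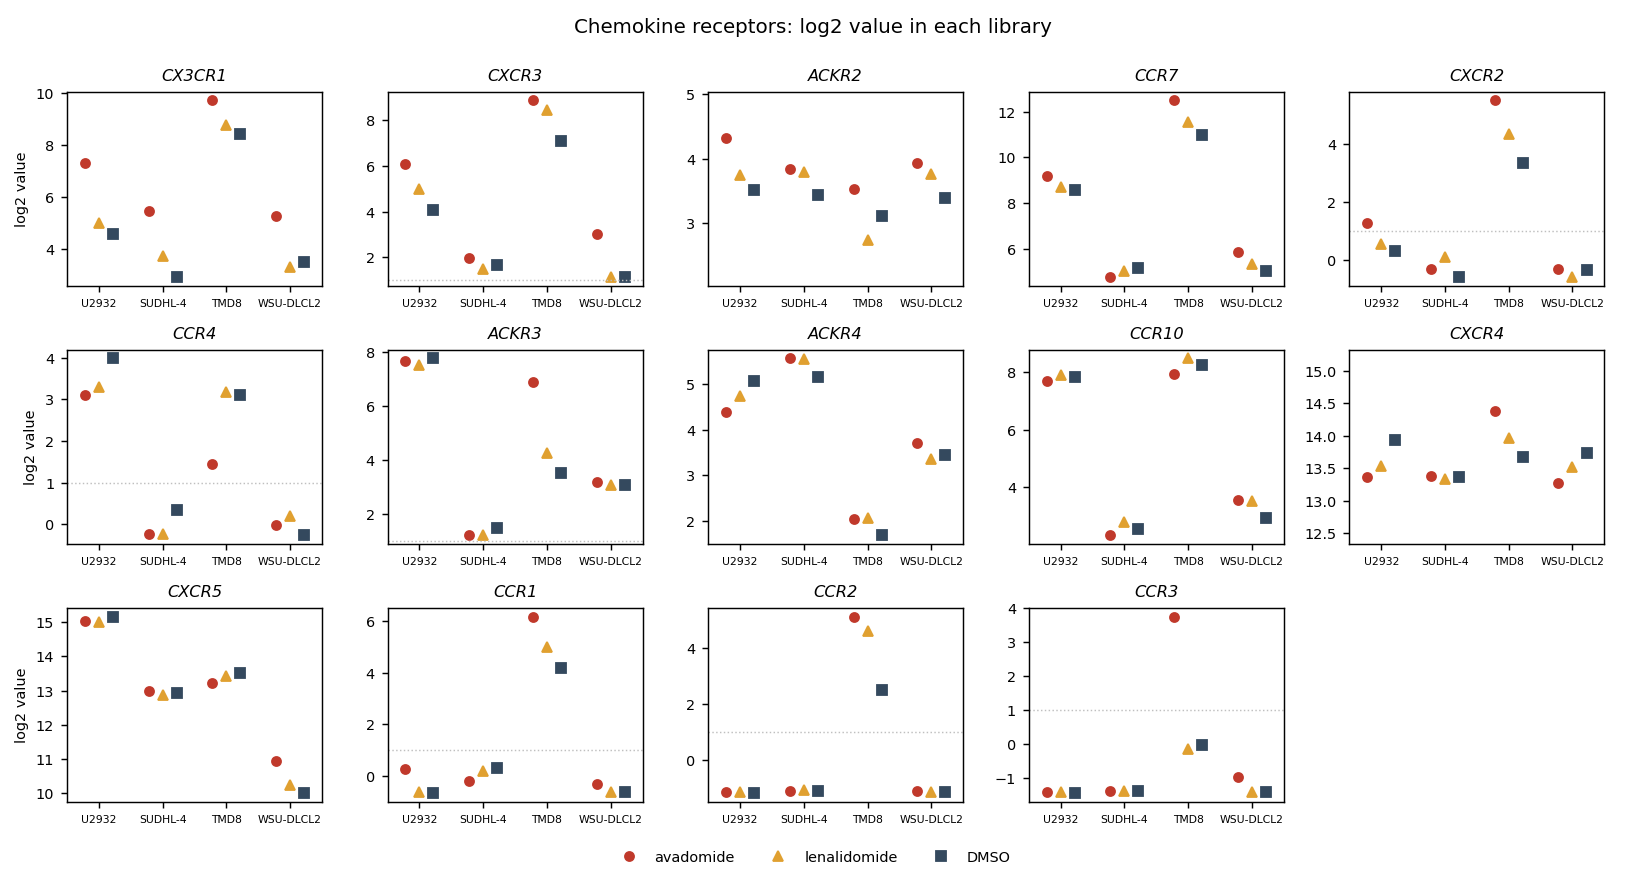
Log2 value of chemokine receptors in each library, by line, with avadomide (circles), lenalidomide (triangles) and DMSO (squares); each symbol is 1 library and each panel has its own axis, with a dotted line at the filter value of 1 where it falls in range. CX3CR1 and CXCR3 are highest with avadomide in all 4 lines, and CCR1, CCR2 and CCR3 exceed 1 only in TMD8.

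Receptors that place B cells in lymphoid tissue had smaller or uneven differences. CCR7, the receptor for CCL19 and CCL21 (chromosome 17, 40553769 to 40565472), read 9.20, 4.78, 12.49 and 5.88 with avadomide in U2932, SUDHL-4, TMD8 and WSU-DLCL2, 8.70, 5.03, 11.54 and 5.36 with lenalidomide, and 8.58, 5.19, 10.99 and 5.06 with DMSO. It was highest with avadomide in 3 lines and lowest in SUDHL-4. The difference of 0.63 ± 0.23 missed the threshold (limma adjusted p = 0.0728) and without SUDHL-4 was 0.98 and passed (limma adjusted p = 0.00654), whereas without TMD8 it was 0.34. CXCR5 and CXCR4 passed the filter in every library, with values from 10.00 to 15.17 and from 13.28 to 14.38. Their differences were 0.15 (95% interval -0.21 to 0.51) for CXCR5 and -0.07 (95% interval -0.44 to 0.30) for CXCR4, which stood 0.71 above DMSO in TMD8 and 0.56 below it in U2932. Without TMD8 the CXCR4 difference was -0.33 and passed (limma adjusted p = 0.0498), whereas without U2932 it was 0.092. CXCR5 overlaps BCL9L on the other strand, which is expressed.

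CCR4, the receptor for CCL17 and CCL22 (chromosome 3, 32951574 to 32956349), read 3.10, -0.24, 1.46 and -0.01 with avadomide, 3.29, -0.23, 3.18 and 0.21 with lenalidomide, and 3.98, 0.34, 3.09 and -0.26 with DMSO in U2932, SUDHL-4, TMD8 and WSU-DLCL2. The 2 lines with a value above 1 both read lower with avadomide, by 0.88 in U2932 and 1.64 in TMD8, and the difference over 4 lines was -0.71 ± 0.32 (95% interval -1.43 to 0.0007, limma adjusted p = 0.134). CXCR2, the shared receptor of CXCL8 and related ligands, read 1.29, -0.30, 5.52 and -0.29 with avadomide, 0.56, 0.13, 4.36 and -0.57 with lenalidomide, and 0.34, -0.56, 3.38 and -0.32 with DMSO, a difference of 0.85 ± 0.33 (limma adjusted p = 0.0907) with TMD8 2.14 above DMSO. ACKR3, a scavenger of CXCL12 (chromosome 2, 236567787 to 236582358), read 7.66, 1.22, 6.87 and 3.17 with avadomide, 7.51, 1.24, 4.25 and 3.06 with lenalidomide, and 7.75, 1.47, 3.51 and 3.07 with DMSO. TMD8 stood 3.35 above DMSO and each of the other lines moved by at most 0.25, so the mean of 0.78 ± 0.51 (limma adjusted p = 0.30) describes no single line. CXCL12 itself lay between -2.25 and -2.09 in all libraries. CCR10 and ACKR4 had differences of -0.001 (95% interval -0.33 to 0.33) and 0.08 (95% interval -0.34 to 0.51), and both overlap expressed genes on the other strand, CNTNAP1 for CCR10 and ACAD11 for ACKR4.

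Line by line, WSU-DLCL2 had the most ligands that read at least 1 (log2) above DMSO with avadomide, 10 of 16 tested, against 6 in TMD8, 5 in U2932 and 1 in SUDHL-4. The same size of rise was seen in 6.18%, 6.55%, 6.07% and 1.79% of all tested genes in those same lines. Ligands at least 1 lower were CCL17 and CCL22 in U2932 and CCL22 in TMD8, where 1.24% and 2.62% of all tested genes fell that far. For receptors TMD8 came first, with 5 of 11 tested at least 1 higher (ACKR3, CCR7, CX3CR1, CXCR2 and CXCR3) and CCR4 lower, whereas U2932, SUDHL-4 and WSU-DLCL2 had 2, 1 and 2. With lenalidomide the ligands at least 1 higher numbered 3, 0, 3 and 4 in the usual order of lines, where 1.96%, 0.595%, 1.85% and 1.66% of all tested genes were. CXCR3 in TMD8 was the 1 tested receptor to do so, and CCL22 in U2932 was the 1 tested member at least 1 lower, where 0.546% of all tested genes were. These are values of single libraries with no test.

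Under lenalidomide no member was called. The limma fit gave 0 of 16 ligands and 0 of 11 receptors, where 0.235% of all tested genes passed; at an unadjusted p under 0.05 there were 2 ligands and 0 receptors, and 13.0% of all tested genes. The median log2 fold change was 0.23 over tested ligands, 0.15 over tested receptors and below 0.01 over all tested genes. The 2 ligands were CXCL10 at 1.34 ± 0.57 (95% interval 0.06 to 2.63, limma adjusted p = 0.36) and CCL4L2 at 0.83 ± 0.35 (95% interval 0.03 to 1.62, limma adjusted p = 0.364), each above DMSO in 4 of 4 lines. CCL4 stood at 0.76 ± 0.44 and CCL3 at 0.31 ± 0.38, also above DMSO in 4 of 4 lines. CXCL9 stood at 0.90 ± 0.59, and its 4 single-line differences were 2.32, 0.02, 1.10 and 0.17 in the usual order of lines. CXCL11 and CX3CR1 had 95% intervals of -0.45 to 0.60 and -0.17 to 0.87. The SE comes from the spread left in all 12 libraries together after line and treatment are fitted, avadomide included. Fitted to only the 8 libraries compared, 3 ligands passed higher, CCL4 (limma adjusted p = 0.0152), CCL4L2 (limma adjusted p = 0.023) and CXCL10 (limma adjusted p = 0.0279), and 669 of all tested genes against 53 in the fit to 12 libraries.

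**Figure D5:**
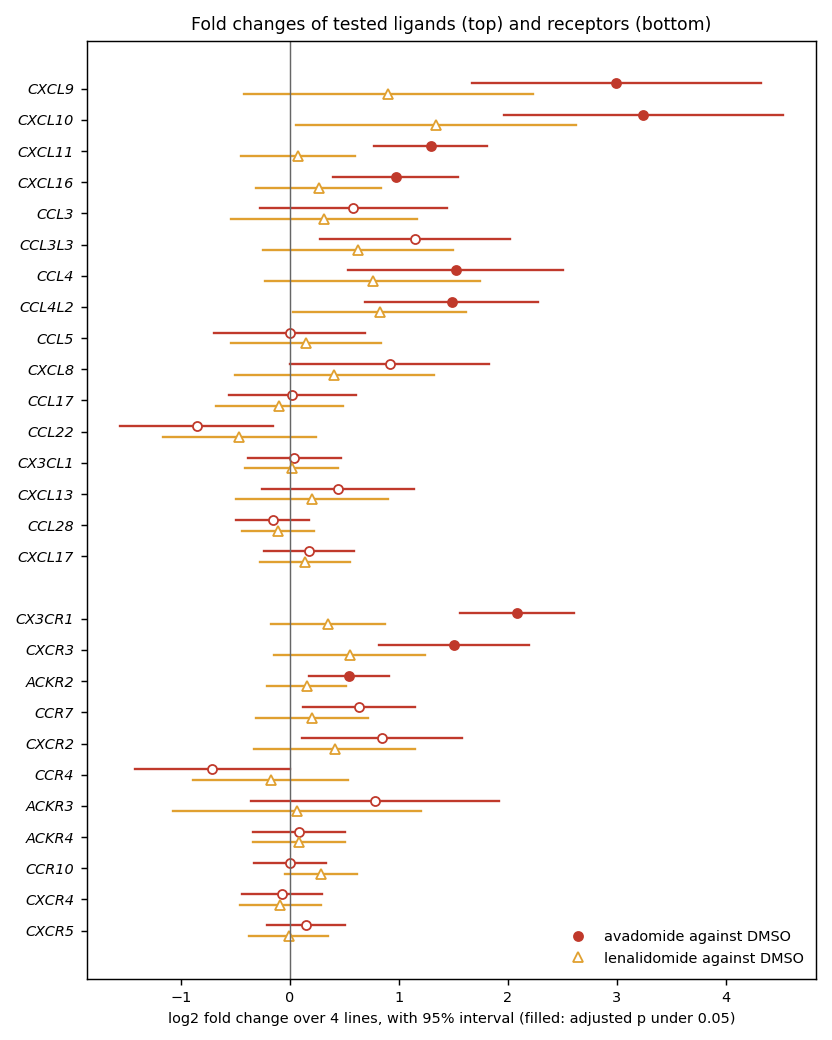
Log2 fold change over 4 lines with 95% intervals for each tested ligand and receptor, for avadomide and lenalidomide, each against DMSO, from the limma fit to 12 libraries; filled symbols passed the threshold. Under avadomide 9 members are filled, with CXCL10 farthest to the right at 3.25, and under lenalidomide none is filled.

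Avadomide set directly against lenalidomide left 1 ligand and 1 receptor past the threshold, both higher with avadomide, beside 4.73% of all tested genes. CXCL11 was 1.22 ± 0.23 higher with avadomide, or 2.32-fold (limma adjusted p = 0.0283), and CX3CR1 1.74 ± 0.23 higher, or 3.33-fold (limma adjusted p = 0.0125), each in 4 of 4 lines. CXCL9 and CXCL10 were also higher with avadomide in 4 of 4 lines, by 2.10 (95% interval 0.77 to 3.42) and 1.90 (95% interval 0.62 to 3.19), and missed the threshold (limma adjusted p = 0.0748 and 0.0893). CXCR3 and CXCL16 stood at 0.96 (95% interval 0.27 to 1.65) and 0.71 (95% interval 0.13 to 1.28) with limma adjusted p of 0.105 and 0.144. For CCL4L2 and CCL4 the differences were 0.66 and 0.76, with intervals of -0.13 to 1.45 and -0.22 to 1.75. The 27 tested members make 27 of the 22528 differences over which p was adjusted in this comparison. The CXCL11 call was lost without U2932, TMD8 or WSU-DLCL2 (limma adjusted p = 0.0926, 0.105 and 0.132), and the CX3CR1 call without U2932 or WSU-DLCL2 (limma adjusted p = 0.0797 and 0.0922). As the doses are unknown, these are differences between the libraries as treated and not between compounds at matched dose.

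Of the 54 members, 27 did not pass the filter. CCL1, CCL13, CCL16, CCL18, CCL19, CCL2, CCL20, CCL21, CCL23, CCL24, CCL25, CCL26, CXCL12, CXCL3, CXCL6 and XCL1 lay between -2.41 and 0.74 in all libraries, and CCL19 and CCL2 reached that upper end with avadomide, at 0.74 in TMD8 and 0.71 in WSU-DLCL2. The receptors ACKR1, CCR8, CXCR1 and CXCR6 stayed below 1 in every library. Listed at 0 in all libraries were CCL7, CCL8, CCL11, CCL14, CCL15, CCL27, CXCL1, CXCL2, CXCL5, CXCL14, XCL2 and CXCL1P. The other 7 untested receptors exceeded 1 in 1 to 3 libraries and were looked at after their values were known. A run of receptor genes for inflammatory CC chemokines on chromosome 3, with CCR3 (46163604 to 46266706), CCR1 (46201709 to 46208396) and CCR2 (46353734 to 46360928), was expressed in TMD8 and was higher there with avadomide. CCR1 read 6.18 with avadomide, 4.99 with lenalidomide and 4.18 with DMSO in TMD8, and CCR2 read 5.11, 4.60 and 2.5. CCR3 read 3.75, -0.14 and -0.01. In the other 3 lines these genes lay between -1.43 and 0.31, and CCR1 and CCR3 overlap on opposite strands. The nearby XCR1 stood at 1.52, 0.87 and 0.82 in TMD8 and CCR9 at -0.36, 0.18 and 1.16, the reverse order. CCR6, the receptor for CCL20, exceeded 1 with avadomide in SUDHL-4 (1.49, with -0.16 for lenalidomide and 0.31 for DMSO) and WSU-DLCL2 (1.81, with 0.72 for lenalidomide and 0.58 for DMSO). With 1 library each, none of these was tested.

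Genes around the chemokine system were read from lists. Of 35 tested genes that signal below chemokine receptors, 7 rose and 7 fell with avadomide, with a list median of 0.06, where 13.6% of all tested genes were called higher and 11.2% lower. With equal library medians 3 of the list rose and 10 fell, beside 1881 and 4825 of all tested genes, and without WSU-DLCL2 2 rose and 5 fell. GNG2, a G protein gamma subunit, rose by 0.72 ± 0.14 and PREX1, which activates Rac, by 0.82 ± 0.20 (limma adjusted p = 0.00631 and 0.0161). GNG2 differed from DMSO by 0.0013 in TMD8, and PREX1 by -0.18 in U2932. Neither was called without WSU-DLCL2, and PREX1 was also lost without SUDHL-4 or without TMD8. GRK5, a kinase that desensitizes receptors, fell by 0.73 on the log2 scale, and RAC2, DOCK2, DOCK8 and ELMO1 fell by 0.31, 0.22, 0.22 and 0.20 (limma adjusted p from 0.000505 to 0.0147). RAC1, of the same list, rose by 0.29 ± 0.06 (limma adjusted p = 0.00599). Its call and that of ADRBK2 (higher) held when any 1 line was left out, whereas the ELMO1 call was lost without U2932 or without WSU-DLCL2. DOCK8 was the 1 gene of this list called under lenalidomide, at -0.21 (limma adjusted p = 0.0475). That call was lost without U2932, SUDHL-4 or WSU-DLCL2, where 0 of all tested genes were called lower. The same held with no filter on low values, after quantile normalization and with equal library medians. Of 13 tested positioning receptors of B cells, 3 rose with avadomide, the integrin subunits ITGA4, ITGB1 and ITGB7 (0.26, 0.50 and 0.83), and 0 fell, a share in either direction near the 24.8% of all tested genes. The ITGA4 call was lost without U2932, without TMD8, with no filter on low values and with equal library medians. With equal library medians the integrin subunit ITGAL was called lower. None of 5 tested family genes outside the symbol pattern passed, where CCRL2 stood at -0.47 ± 0.29, and PF4, PF4V1 and PPBP were at 0 in all libraries. Among 21 transcription factors known to act on chemokine genes, 6 rose with avadomide and 1 fell, where 13.6% and 11.2% of all tested genes did. The interferon signal transducers STAT2 and IRF9 rose by 0.71 ± 0.13 and 0.84 ± 0.18, and IRF7 by 1.90 ± 0.40 (limma adjusted p from 0.00522 to 0.00989). STAT2 stood 0.63, 0.10, 1.18 and 0.93 above DMSO in the usual order of lines, with the smallest rise in SUDHL-4. In that line IRF7 and IRF9 differed from DMSO by -0.06 and -0.04. The rises of CXCL9, CXCL10, CXCL11, CXCR3 and ACKR2 were also smallest in SUDHL-4. Those of the other called members were not. CX3CR1 rose by 2.56 in SUDHL-4 and by 1.31 in TMD8. CXCL16 rose least in TMD8 (0.26), and CCL4 and CCL4L2 had their lowest differences in U2932 (-0.07 and 0.65). The share of all tested genes at least 1 (log2) higher with avadomide was smallest in SUDHL-4, at 1.79%. A link between these was not tested. The drug targets IKZF1 and IKZF3 rose as RNA by 0.72 ± 0.09 and 0.38 ± 0.07, and IRF8 fell by 0.40. Without U2932 or without WSU-DLCL2 4 factors rose, and IRF7 and IRF9 were not among them; without WSU-DLCL2 the NF-kB subunits NFKB1, NFKB2 and RELB fell in place of IRF8. Under lenalidomide 0 of these 21 passed in limma.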

How the data were processed

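RNA sequencing gave 12 libraries, 1 for each of 4 lines and 3 treatments, with line and treatment taken from the labels. The authors deposited log2 values per gene and library; STAR, Salmon, MACS and build hg38 are named without versions or roles, per the submitters' processing notes, and neither the normalization nor the exact transform is given there or in the labels. Low values vary little between libraries, so changes of low genes may be compressed, and no count model, depth or counting interval applies. The plan allowed for counts or linear values; as the values were already logged, they were used as deposited, with no pseudocount. Of 58684 rows, 28 with a symbol turned into a calendar date and 17114 at 0 in all libraries were left out, and 0 columns lacked a sample.

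Genes that reached 1 on the log2 scale in 4 or more libraries entered a limma fit (version 3.58.1, R 4.3.3) that had treatment and cell line as terms and an intensity trend, over all 12 libraries (6 residual and 9.62 total degrees of freedom). Tests were two-sided, with Benjamini-Hochberg adjustment over 22528 genes and a threshold of 0.05. The fit was tested on simulated data. Errors are SEs of the fit. With 1 library per line and treatment, p-values rest on how much the treatment differences vary between lines, part of which may be technical. The line pairs the libraries: libraries of 1 line deviated together from their group means (correlations of 0.918 to 0.977). Correlations between different lines were -0.574 to 0.199. Taking out the mean of the 4 lines by itself pulls these towards negative values, so they are not a free comparison. Alternatives were another scaling, other filters, no intensity trend, only the 8 libraries compared, no block and leaving out each line. Members named in full were those called in any comparison or changed by at least 1 within a line while at 1 or more; the members and lists were chosen with earlier results of these data known. Coordinates come from GENCODE v29 and promoters from RefSeq (GRCh38.p14); CCL3L3 had no coordinate in that annotation. Results for some genes are not reported here.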

Additional observations from a re-analysis of the deposited data

Results flagged for a closer look

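Among 40 changes examined over the 4 lines, 4 had a single line set apart from the other 3 by a gap above Dixon's 95% critical value. The changes examined were those of the members named in full. ACKR3, CXCL13 and CCL5 were named only because 1 line changed by at least 1 (log2). The usual chance rate of about 1 in 20 therefore does not apply here, and no conclusion is drawn from the count. ACKR3 stood 3.35 above DMSO with avadomide in TMD8, where the other lines read -0.09, -0.25 and 0.10. CXCL13 stood 1.99 above DMSO with avadomide in TMD8, against -0.24, 0.00 and 0.03 elsewhere. CCL5 stood 1.17 above DMSO with avadomide in WSU-DLCL2, while U2932, SUDHL-4 and TMD8 read -0.24, -0.52 and -0.43. CXCR3 was 0.34 above DMSO with avadomide in SUDHL-4, below the 2.02, 1.79 and 1.88 of U2932, TMD8 and WSU-DLCL2.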

How the results depend on the processing

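Depth is unknown and each line has 1 library per treatment, so small differences in low genes are not detectable here, and a missed threshold does not show that a gene did not change. The calls of CXCL10 and CXCL11 under avadomide were kept under every alternative run except the fit without the line as block, and so was that of CX3CR1; CXCL9 also missed in the fit to only the 8 libraries compared (limma adjusted p = 0.0503). Without the block 0 genes were called in the 3 comparisons, ligands and receptors included, with 514 genes for avadomide, 61 for lenalidomide and 110 for avadomide against lenalidomide at an unadjusted p under 0.05. With a line left out, avadomide calls numbered 2666 to 4644 over all genes, 5 to 6 ligands and 1 to 4 receptors; lenalidomide calls 0 to 67 over all genes; and avadomide against lenalidomide 0 to 507 over all genes, 0 to 1 ligands and 0 to 1 receptors. With only the 8 libraries compared, avadomide gave 1376 genes and 2 ligands, lenalidomide 669 genes and 3 ligands, and avadomide against lenalidomide 0 ligands. With no filter on low values, avadomide gave 3 ligands, lenalidomide 0 genes, and avadomide against lenalidomide 220 genes and 0 ligands. With the filter at a log2 of 5, lenalidomide gave 132 genes. Without the intensity trend lenalidomide gave 1 gene, and avadomide against lenalidomide 10 genes, 0 ligands and 0 receptors. Quantile normalization gave 21 lenalidomide genes, and equal library medians 0 lenalidomide genes and 1736 for avadomide against lenalidomide.

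The split of avadomide calls was 3068 higher and 2514 lower as deposited, 2544 and 3644 after quantile normalization and 1881 and 4825 with equal library medians, which moved the median of all genes by -0.11. With these 2 scalings, in that order, the sign turned for small changes under avadomide of CCL17 (-0.12 and -0.089), CX3CL1 (-0.10 and -0.069) and ACKR4 (-0.073 and -0.025). It also turned for CX3CL1 under lenalidomide (-0.046 and -0.0080) and, for avadomide against lenalidomide, in CX3CL1 (-0.058 and -0.061), CXCL17 (-0.079 and -0.049) and, with equal medians, CXCR4 (-0.070). With a line left out, avadomide differences from DMSO crossed 0 for ACKR3 (-0.078 to 1.12), ACKR4 (-0.022 to 0.34), CCL17 (-0.24 to 0.41), CCL5 (-0.40 to 0.17), CCR10 (-0.21 to 0.10), CX3CL1 (-0.22 to 0.16), CXCL13 (-0.070 to 0.67), CXCR4 (-0.33 to 0.092) and CXCR5 (-0.12 to 0.30). Lenalidomide differences crossed 0 for ACKR3 (-0.16 to 0.17), ACKR4 (-0.013 to 0.23), CCL17 (-0.25 to 0.17), CX3CL1 (-0.19 to 0.14), CXCL11 (-0.086 to 0.18), CXCL13 (-0.099 to 0.37), CXCR4 (-0.22 to 0.015) and CXCR5 (-0.096 to 0.032). Differences of avadomide from lenalidomide crossed 0 for ACKR4 (-0.11 to 0.11), CCL28 (-0.13 to 0.11), CCL3 (-0.23 to 0.73), CCL5 (-0.59 to 0.11), CX3CL1 (-0.032 to 0.11), CXCL17 (-0.0075 to 0.099), CXCR4 (-0.12 to 0.099) and CXCR5 (-0.019 to 0.28). The causes were not tested.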

Other observations

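Some untested ligands near the bottom of the scale read higher with avadomide than with DMSO in single lines. CCL2, a monocyte attractant, read 0.71 with avadomide, -1.76 with lenalidomide and -1.76 with DMSO in WSU-DLCL2, and 0.02, -1.32 and -1.75 in TMD8. CCL20, the ligand of CCR6, read 0.10, -1.72 and -1.72 in WSU-DLCL2 and -0.18, -1.71 and -1.75 in U2932. CCL19, a ligand of CCR7, read 0.74, -1.30 and -1.53 in TMD8 and 0.28, 0.52 and -1.57 in U2932. All are values of single libraries below the filter of 1, chosen after they were seen.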
